A study of Mus musculus with 4 samples.

Results

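The comparison described here is the difference between the effect of the Q175 allele in D2 neurons and its effect in D1 neurons. For each gene it is the log2 ratio of Q175 over WT in D2 minus the log2 ratio of Q175 over WT in D1. Of 37620 gene identifiers in the count table, 11152 reached a CPM (counts scaled to a common library size) of 5 in any of the 4 libraries and were compared. Where 4 levels follow a gene, they are those of D1 neurons in WT and Q175 and then of D2 neurons in WT and Q175. A positive difference means that a gene was higher, or less lowered, by genotype in D2 than in D1 neurons, and a negative difference means the reverse.

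The 4 libraries came from spiny projection neurons of the corpus striatum of male mice aged 5 to 6 months on the C57BL6/J background. D1 neurons were sorted for EGFP fluorescence from Drd1-EGFP BAC mice and D2 neurons from Drd2-EGFP BAC mice, so cell type and reporter line cannot be told apart. Q175 mice were heterozygous for the zQ175 knock-in, which places an expanded CAG repeat in Htt and models Huntington's disease, and WT mice were their littermates. Each genotype was sequenced as 1 library per cell type, for which cells of 4 animals were pooled at 150000 per animal. All 4 groups therefore carried a reporter transgene, and both Q175 groups kept 1 unexpanded Htt allele. With 1 library per group the 4 values of a gene use up every degree of freedom, so no test of the difference exists, and each difference has no replicate check. Intervals below are 95% counting intervals, which cover counting error only.

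Spiny projection neurons are the main output neurons of the striatum and use GABA as transmitter. Those of the direct pathway carry the D1 dopamine receptor with the peptides dynorphin and substance P, and those of the indirect pathway carry the D2 dopamine receptor and an adenosine receptor with enkephalin. In Huntington's disease both kinds lose expression of their identity genes, and indirect-pathway neurons are known for being affected early.

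Total counts ran from 39444046 to 42787014 per library, so that 1 CPM stood for 38.2 to 43.8 counts. Mitochondrially encoded genes took 6.06% and 8.98% of counts in the WT and Q175 libraries of D1 and 6.49% and 11.1% in those of D2. Htt (ENSMUSG00000029104) was at 159, 116, 154 and 121 CPM, a difference of 0.11. A knock-in allele is itself transcribed, so the genotype labels cannot be checked on this level.

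Most genes had nearly the same genotype ratio in both cell types. The median difference was 0.01 log2 units, its quartiles were -0.14 and 0.13, and 95% of genes lay between -0.49 and 0.43. The direction of this small median depends on the scaling, since it was -0.01 when counts were scaled by library totals and -0.02 with log2(FPKM + 0.1). In D1, a 2-fold change in Q175 was reached by 141 of these genes upward and by 80 downward. In D2 the numbers were 166 and 131. Changes of 2-fold in both cell types were shared by 89 genes upward and 51 downward. A change of at least 0.32 log2 units in the same direction in both was found for 1820 genes, 16.3% of those compared.

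The difference itself reached 2-fold in 39 genes, 0.350% of those compared. It was positive in 22 of them (0.197%) and negative in 17 (0.152%). Of the 22 positive genes 11 were below 5 CPM in at least 1 library, as were 10 of the 17 negative and 875 of all 11152. The highest difference, 2.50, belonged to ENSMUSG00000092773, a gene without a symbol whose counts were not whole, at 1.52, 1.05, 1.23 and 5.05 CPM. That gene passed the minimum through D2 Q175 alone, which favours a positive difference. At the lower limit of 0.5 log2 units with an interval that excluded 0, 427 genes (3.83%) were counted, 167 positive (1.50%) and 260 negative (2.33%). When counts were scaled by library totals, genes past 0.5 with or without that interval numbered 147 positive and 307 negative, against 174 and 266 with the main scaling. Genes just inside the CPM minimum were Ogg1 (5.00 CPM at most, difference 0.51) and Pcsk1 (-0.47), and genes just outside it were Zfp128 (4.99 CPM, 0.13), Zfp809 (-0.05) and Cachd1 (4.98 CPM, 0.21).

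**Figure D1:**
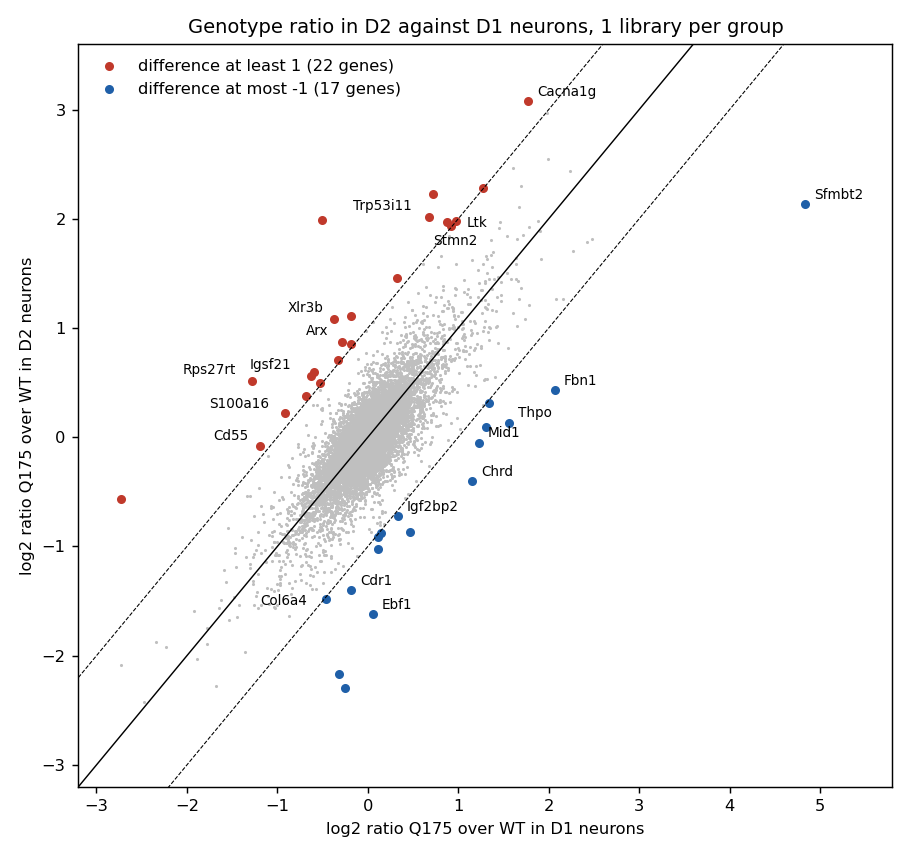
Each point is 1 of 11152 genes, with its log2 ratio of Q175 over WT in D1 neurons on the x axis and in D2 neurons on the y axis. The solid line marks equal ratios and the dashed lines a 2-fold difference, beyond which lie 22 genes above and 17 below, with Sfmbt2 at 4.84 in D1 and 2.13 in D2.

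Counting error covered only part of the spread. In the 2231 genes of lowest mean level, from 2.10 to 12.9 CPM, the SD of the difference across genes was 0.35, against a root mean square counting standard error of 0.19. In the 2231 genes of highest level, above 103 CPM, the SD was 0.18 and the counting standard error 0.036, a ratio of 4.94. The interval excluded 0 in 5139 genes, 46.1% of those compared, with 2577 (23.1%) above 0 and 2562 (23.0%) below, so an interval that excludes 0 sets no gene apart in these libraries. Of the 39 genes with a 2-fold difference, 27 lay in the group of lowest level and 0 in the group of highest level.

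**Figure D2:**
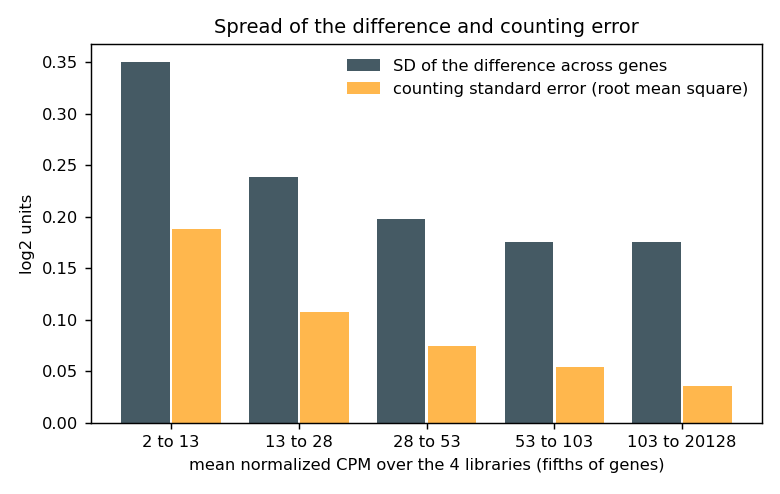
Bars give, for 5 equal groups of genes by mean normalized CPM (x axis), the SD of the difference across genes and the root mean square counting standard error in log2 units. The SD goes from 0.35 to 0.18 while the counting standard error goes from 0.19 to 0.036.

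Among the genes with positive differences, a group was higher in Q175 in both cell types and by more in D2. Stmn2 (ENSMUSG00000027500), which encodes a microtubule-binding stathmin of growing axons, was at 77.6 and 143 CPM in D1 and at 11.6 and 45.6 CPM in D2. The log2 ratios were 0.88 (D1) and 1.97 (D2), a difference of 1.09 with a counting standard error of 0.081. The lowest library was D2 WT, and D2 Q175 remained below both D1 libraries.

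Ltk (ENSMUSG00000027297), a receptor tyrosine kinase gene, also had its lowest level in D2 WT and its highest in D1 Q175, with 32.6, 64.1, 8.63 and 34.1 CPM. Its difference was 1.0 (0.81 to 1.20). Trp53i11, a p53-inducible gene, read 28.7, 45.9, 9.03 and 36.7 CPM, a difference of 1.34 (1.15 to 1.54). The potassium channel subunit gene Kcng1 was at 116, 153, 32.5 and 67.6 CPM and differed by 0.65 (0.55 to 0.76). Each of these 4 genes was higher in D1 than in D2 in both genotypes and lay closer between the cell types in Q175. The same holds for Faim2, an inhibitor of Fas-mediated cell death, at 247, 310, 126 and 228 CPM (difference 0.53), and Fndc4, at 64.2, 72.8, 22.1 and 40.2 CPM (0.68). Counts of Trp53i11 and Faim2 were not whole numbers, as happens where reads are shared between genes or copies, and their values are uncertain.

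Cacna1g (ENSMUSG00000020866), which encodes the T-type calcium channel Cav3.1, crossed over between the cell types. It had 87 and 329 counts in D1 and 50 and 481 in D2, or 2.27, 7.87, 1.26 and 11.0 CPM. Its ratio was 1.77 in D1 and 3.08 in D2, a difference of 1.31 (0.77 to 1.84). D2 was the lower cell type in WT and the higher one in Q175. Fxyd7, a regulator of the sodium pump, was level in D1 (39.7 and 41.4 CPM) and went from 5.08 to 10.6 CPM in D2, a difference of 1.0 (0.74 to 1.26). The immunoproteasome gene Psmb10 (2.82, 5.38, 1.38 and 5.43 CPM) and the glycosyltransferase gene Galnt9 (2.69, 6.56, 0.453 and 2.40 CPM) both differed by 1.02. With log2(FPKM + 1), the difference of Galnt9 was -0.094.

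A smaller set of positive differences came from genes lower in Q175 in D1 and not in D2. Cd55, which protects cells from complement, stood at 11.9, 5.19, 2.94 and 2.79 CPM, a difference of 1.11 (0.68 to 1.54). The calcium-binding protein gene S100a16 was at 11.2, 5.91, 6.26 and 7.31 CPM and differed by 1.14 (0.81 to 1.46). Nr4a3, a nuclear receptor gene induced by activity, was at 42.4, 28.2, 53.1 and 50.4 CPM and differed by 0.51 (0.38 to 0.65). In these 3 genes D1 Q175 stood apart from D1 WT by at least 0.59 log2 units while both D2 libraries lay within 0.22 log2 units of each other. Rph3a, which encodes the synaptic vesicle protein rabphilin, ran lower in D1 (183 to 152 CPM) and higher in D2 (68.6 to 80.8 CPM), a difference of 0.51 (0.42 to 0.59).

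Negative differences also took several forms. Sfmbt2 (ENSMUSG00000061186), a Polycomb-group gene, had the lowest value of all, -2.71 (-3.66 to -1.75). It had 8 and 306 counts in D1 and 127 and 620 in D2, or 0.209, 7.32, 3.20 and 14.2 CPM. Its level in Q175 was higher than in WT in both cell types, and the size of the difference rests on the 8 counts of D1 WT. With log2(FPKM + 1) the difference of Sfmbt2 was 0.080.

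A set of genes was higher in Q175 in D1 and by less, or not, in D2. Mid1 (ENSMUSG00000035299), a ubiquitin ligase gene of the X chromosome that spans the pseudoautosomal boundary in mice, stood at 34.9, 81.8, 102 and 99.0 CPM, a difference of -1.28 (-1.39 to -1.17). Fbn1, which encodes the matrix protein fibrillin 1, was at 2.54, 10.8, 6.16 and 8.33 CPM (-1.64, interval -2.03 to -1.25). Thpo, which encodes thrombopoietin, was at 5.86, 17.4, 37.2 and 40.7 CPM (-1.43, interval -1.67 to -1.19). In Mid1 and Thpo the D1 WT library was the low one, and the D2 libraries exceeded both D1 libraries. Tbc1d1, a regulator of Rab proteins, and Ninl, a centrosome gene, differed by -0.94 and -0.92 in the same form. Counts of Mid1, Fbn1 and Thpo were not whole, and exons of Thpo overlap those of Chrd on chromosome 16, so their values are uncertain.

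Another set was lower in Q175 in D2 while D1 moved little. Cdr1 (ENSMUSG00000090546), which encodes an antigen of cerebellar degeneration, stood at 49.8, 43.7, 49.6 and 18.8 CPM, a difference of -1.21 (-1.36 to -1.06). Exons of Cdr1 overlap the noncoding gene C230004F18Rik, so its value is uncertain. Chd7, a chromatin remodeller, was at 9.86, 10.6, 12.8 and 6.74 CPM (-1.02), and Usp28, a deubiquitinase gene, at 165, 170, 231 and 147 CPM (-0.70, interval -0.76 to -0.63). In each of these 3 genes the D2 Q175 library was the lowest of the 4.

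Flna (ENSMUSG00000031328), which encodes the actin crosslinker filamin A, was at 208, 227, 405 and 266 CPM and differed by -0.74 (-0.79 to -0.68). Ppp4r1, a regulatory subunit of protein phosphatase 4, was at 75.3, 82.6, 112 and 65.2 CPM and differed by -0.91 (-1.01 to -0.81). Col6a4 (ENSMUSG00000032572), a collagen VI chain gene, was lower in Q175 in both cell types and by more in D2, at 51.7, 37.4, 72.7 and 25.9 CPM (-1.02, interval -1.16 to -0.88). Nt5e, whose product makes adenosine outside the cell, was higher in Q175 in D1 (3.53 to 5.67 CPM) and lower in D2 (92.5 to 77.0 CPM), a difference of -0.94 (-1.25 to -0.63). Its larger ratio, 0.68, was in D1, where its level was at most 5.67 CPM. Over the settings tried, the difference of Nt5e ran from -0.96 to -0.62.

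The related receptor tyrosine kinase genes Alk and Ltk had differences of opposite sign. Alk (ENSMUSG00000055471) was at 1.44, 1.56, 6.19 and 3.01 CPM, a difference of -1.14 (-1.73 to -0.54), where Ltk differed by 1.0. Alk passed the minimum of 5 CPM through D2 WT alone, which favours a negative difference. D2 WT was the highest library for Alk and the lowest for Ltk.

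**Figure D3:**
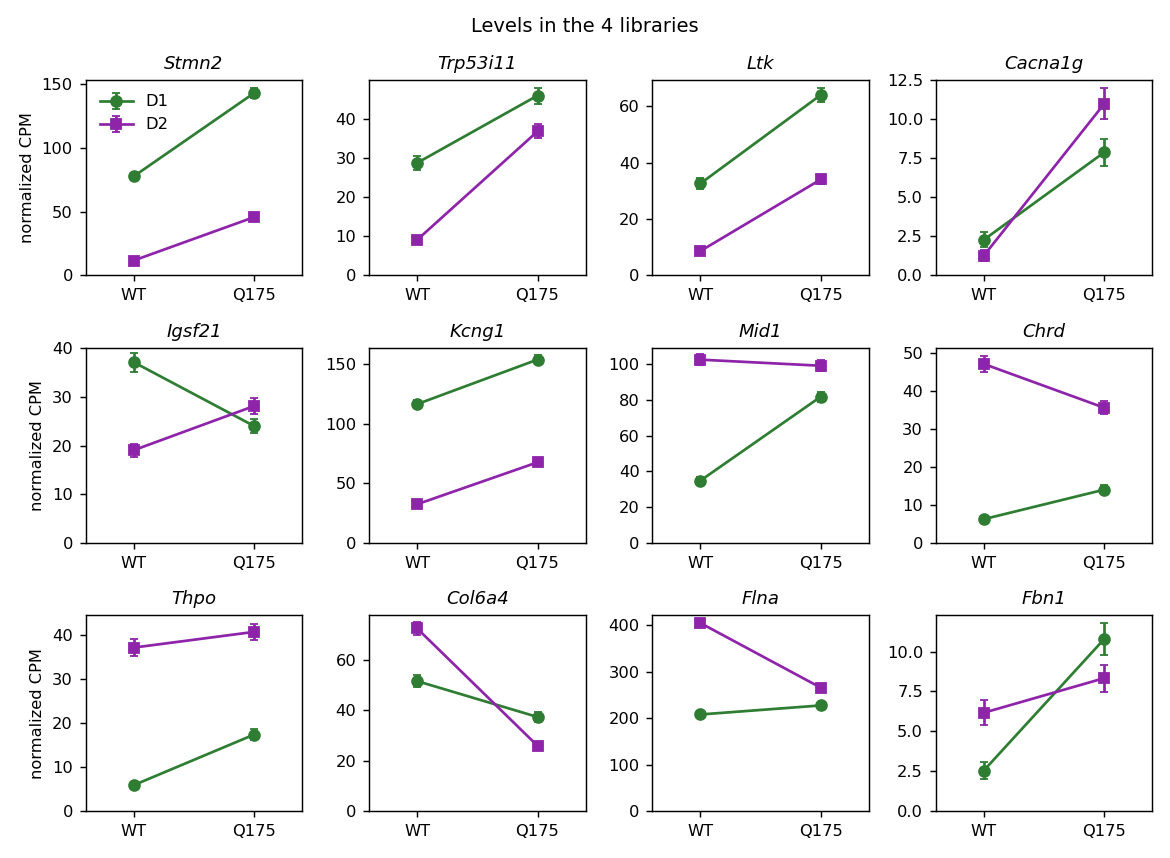
Normalized CPM (y axis, from 0) in WT and Q175 is shown for 12 genes in D1 (circles) and D2 (squares), 1 library per point, with 95% counting intervals as bars. On this linear axis the D2 line is the steeper one for Trp53i11, Cacna1g and Flna, and the D1 line for Stmn2, Mid1 and Thpo. The lines of Igsf21 cross.

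In 13 genes the level changed at least 2-fold in D2 and less than 0.32 log2 units in D1. Of these, 6 were higher in Q175 (0.054% of genes compared) and 7 lower (0.063%). The named ones among the higher were Apod, a lipid carrier gene, Cxcl14, a chemokine gene, Fxyd7 and Plekha2, together with Gm14776. Among the lower were Alk, Cdr1, Ebf1 and Gm16185. The reverse, at least 2-fold in D1 and less than 0.32 log2 units in D2, was found for 6 higher genes, 0.054% of those compared. They were Mid1, Tbc1d1, Thpo, H2-T10, 4930426D05Rik and C530008M17Rik. It was also found for 2 lower ones, Cd55 and Gm1821 (0.018%). Apod was at 4.18, 4.95, 4.18 and 8.88 CPM and Cxcl14 at 13.7, 15.8, 6.82 and 13.8 CPM. D2 Q175 stood above D2 WT in both while the D1 libraries lay close together. Apod passed the minimum of 5 CPM through D2 Q175 alone, and Alk through D2 WT alone.

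Opposite directions, of at least 0.32 log2 units in each cell type with both intervals excluding 0, were found in 17 genes, 0.152% of those compared. Igsf21 (ENSMUSG00000040972), a synaptic adhesion gene, was at 37.1 and 24.0 CPM in D1 and at 19 and 28.1 CPM in D2. Its ratio was -0.63 in D1 and 0.56 in D2, a difference of 1.19 (1.01 to 1.36), and the cell type with the higher level changed with genotype. Its counts were whole, and no other exon overlapped it.

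Robo3, an axon guidance receptor gene, went the other way, at 39.5, 51.1, 88.6 and 70.1 CPM, and differed by -0.71 (-0.82 to -0.59). So did Ide, which encodes insulin-degrading enzyme, at 29.1, 37.0, 45.0 and 35.4 CPM, with a difference of -0.69 (-0.84 to -0.54). Igf2bp2, an RNA-binding protein gene, was at 4.71, 5.93, 9.86 and 5.96 CPM and differed by -1.05 (-1.41 to -0.70). In Robo3, Ide and Igf2bp2 the D1 and D2 levels lay closer together in Q175 than in WT.

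Chrd, which encodes the secreted BMP antagonist chordin, also ran in opposite directions, at 6.30, 14.1, 47.1 and 35.6 CPM, with a difference of -1.56 (-1.79 to -1.32). Its counts were not whole and its exons overlap Thpo. The teneurin gene Tenm1 was at 6.01, 8.18, 7.47 and 5.21 CPM and differed by -0.96 (-1.30 to -0.61). The others with a symbol included Frg2f1 (-0.75), the X-linked multicopy gene Xlr3b (1.45) and the ribosomal protein gene copies Rps27rt and Rpl37rt.

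Genes that mark the cell types kept their cell type in every library. Drd1 (ENSMUSG00000021478), the dopamine receptor of the direct pathway, stood at 1300 and 771 CPM in the D1 libraries and at 33.0 and 18.1 CPM in the D2 libraries. Its difference was -0.11 (-0.24 to 0.01). Drd2 (ENSMUSG00000032259) stood at 8.58 and 3.37 CPM in the D1 libraries and at 2076 and 1434 CPM in the D2 libraries. Its difference was 0.80 (0.52 to 1.08), with the larger ratio, -1.33, in the cell type where its level was at most 8.58 CPM.

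The adenosine receptor gene Adora2a (ENSMUSG00000020178) had the same form, at 7.79, 3.47, 2173 and 1336 CPM, a difference of 0.45 (0.17 to 0.74). Penk, which encodes proenkephalin, was at 84.2, 41.7, 7476 and 3582 CPM. Its ratios were close in both cell types, and its difference was -0.05 (-0.13 to 0.04). Over the 11 D2 neuron markers the median difference was 0.23 and 7 were positive (63.6%, against 51.8% of all genes). With log2(FPKM + 0.1) and log2(FPKM + 1) this median was -0.10 and -0.18, so its sign depends on the low values in D1. As a sum over the list, D2 neuron markers were at 214 and 161 CPM in the D1 libraries and at 13076 and 7441 CPM in the D2 libraries.

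The 11 D1 neuron markers compared had a median of -0.06, and the median was 0.00 with log2(FPKM + 1). Of these 11, 5 were positive (45.5%, against 51.8% of all genes). Ebf1 (ENSMUSG00000057098), a transcription factor of direct-pathway neurons, was level in D1 at 32.4 and 33.6 CPM and had 18 and 5 counts in the D2 libraries, a difference of -1.68 (-2.91 to -0.44). Tac1, which encodes substance P, was at 824, 889, 108 and 80.4 CPM and differed by -0.54 (-0.61 to -0.47). Pdyn, which encodes prodynorphin, was at 273, 205, 1.31 and 1.53 CPM and differed by 0.63 (0.12 to 1.15). Of these 3, Tac1 alone had a level above 2 CPM in D2, so the other 2 differences rest on few D2 counts. In bulk samples, fewer cells of a type and less RNA per cell cannot be told apart.

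Identity genes that both cell types share had nearly equal genotype ratios as a group. All 30 were compared, and 13 were positive (43.3%, against 51.8% of all genes). Their median difference was -0.02, against 0.01 over all genes. Their median ratio was -0.67 in D1 and -0.65 in D2. Ppp1r1b, which encodes DARPP-32, had the highest difference, 0.20, at 4349, 2452, 3667 and 2372 CPM. Cnr1 (ENSMUSG00000044288), the cannabinoid receptor, had the lowest and was the only member past 0.50, at 773, 384, 783 and 270 CPM, a difference of -0.53 (-0.57 to -0.48). Pde10a, the striatal phosphodiesterase, was at 2188, 1095, 2517 and 989 CPM and differed by -0.35 (-0.37 to -0.32). Both Cnr1 and Pde10a were lowest in the D2 Q175 library, with D1 Q175 next.

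Genes that were at least 2-fold apart between the cell types were also followed as a class. Of 136 genes with a higher level in D1 on the mean of both genotypes, 87 were closer between the cell types in Q175 and 49 farther apart, with a median difference of 0.20. Of 90 genes with a higher level in D2, 49 were closer and 41 farther apart, with a median of -0.05. When the genes were picked in WT alone, 112 of 151 and 72 of 107 were closer in Q175. When they were picked in Q175 alone, 63 of 130 and 36 of 89 were closer. Each of these choices uses libraries that also enter the difference, and the choice on the mean draws on all 4 equally. The share of genes closer in Q175 changed with the choice.

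Cytosolic ribosomal protein genes, whose products build the ribosome, were shifted as a group. Of 74 compared, 69 had a positive difference, against 51.8% of all genes, and their median was 0.25 against 0.01. Their median ratio was 0.02 in D1 and 0.29 in D2. Only 1 member passed 0.50 upward, Rps29 at 75.4, 65.0, 71.4 and 87.6 CPM (0.51), and only 1 downward, Rps13 at 20.3, 26.3, 25.4 and 23.2 CPM (-0.50). Counts of Rps29 and Rps13 were not whole, so both values are uncertain. Rpl38 was at 56.6, 60.7, 51.9 and 76.0 CPM and differed by 0.45 (0.33 to 0.56). In Rps29 and Rpl38 the D2 Q175 library was the highest and D2 WT stood below D1 WT.

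The start of many ribosomal protein transcripts is a run of pyrimidines that begins with C and through which their translation is regulated, which is why the starts are shown here. They belong to the 4 members with the highest and the 2 with the lowest difference among 46 with 1 annotated start in RefSeq (GRCm38.p6). Each line gives 15 bases before and 15 from the annotated start, 5′ to 3′ on the gene's strand, and capitals mark the unbroken run of C and T from the first transcribed base.
Rpl38: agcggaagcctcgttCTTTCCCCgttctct
Rps26: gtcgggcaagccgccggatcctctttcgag
Rps16: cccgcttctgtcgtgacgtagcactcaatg
Rpl35: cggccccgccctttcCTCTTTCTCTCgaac
Rps13: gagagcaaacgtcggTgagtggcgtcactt
Rps27: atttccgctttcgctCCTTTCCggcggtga
These are chr11:114668565-114668594 (+) for Rpl38, chr10:128626492-128626521 (-) for Rps26, chr7:28350674-28350703 (+) for Rps16, chr2:39005117-39005146 (-) for Rpl35, chr7:116334176-116334205 (-) for Rps13 and chr3:90213634-90213663 (-) for Rps27. The differences were 0.45 for Rpl38, 0.42 for Rps26, 0.36 for Rps16, 0.35 for Rpl35, -0.50 for Rps13 and -0.37 for Rps27. A run of at least 5 pyrimidines that began with C was found at the annotated start of 13 of 55 ribosomal protein genes in the table (23.6%) and of 267 of 8533 compared genes (3.13%). Runs were present both at starts of members with positive differences and at that of Rps27, and an annotated start can lie some bases from the true one.

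Rps27 and its near-identical copy had differences of opposite sign. Rps27 (ENSMUSG00000090733) was at 42.0, 66.9, 49.4 and 60.9 CPM, a difference of -0.37 (-0.49 to -0.25). Rps27rt (ENSMUSG00000050621), the retrogene, was at 30.8, 12.6, 23.3 and 33.2 CPM, a difference of 1.79 (1.6 to 1.98). Both had counts that were not whole, and the sum of both, chosen after their values were seen, was 72.8, 79.6, 72.7 and 94.1 CPM with a difference of 0.24 (0.14 to 0.34). Each copy alone is therefore uncertain, and the sharing of reads between the copies was not tested. Rpl10-ps3, a pseudogene at 73.8, 75.6, 52.7 and 80.5 CPM (0.58), and Rbm12b1, a member of a family of copies at 49.7, 55.4, 68.2 and 42.7 CPM (-0.83), are uncertain in the same way.

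Genes of mitochondrial respiration shared the direction. All 15 mitochondrially encoded genes were positive, from 0.17 for mt-Nd4l and mt-Nd4, subunits of complex I, to 0.50 for mt-Rnr2, the large ribosomal RNA, with a median of 0.24. Their median ratio was 0.44 in D1 and 0.67 in D2, so they were higher in Q175 in both. The rRNA mt-Rnr2 was at 991, 1117, 920 and 1465 CPM. Of 75 nuclear genes of oxidative phosphorylation, 73 were positive (97.3%, against 51.8% of all genes), with a median of 0.19, and none passed 0.50. The median ratio of the nuclear genes was -0.08 in D1 and 0.13 in D2. Ndufb6, a complex I subunit gene, had the highest value, 0.44 (0.28 to 0.60), at 30.2, 29.2, 26.0 and 34.1 CPM.

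These 3 lists are made of short genes, and the difference moved with gene length across the whole table. In the shortest of 10 equal groups of genes, with 66 to 1904 nt of exon, the median difference was 0.13 and 74.1% were positive. In the longest, with 10440 to 123179 nt, it was -0.10 and 31.6% were positive. The D2 median ratio went from 0.11 to -0.16 over this range and the D1 median ratio from -0.02 to -0.07. Spearman's rank correlation of the difference was -0.28 with exonic length and 0.16 with GC content over 10904 genes, and 0.01 with mean CPM over all 11152, all from the same libraries.

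The median exonic length was 4713 nt over all genes, 1835 nt for ribosomal protein genes, 1756 nt for nuclear genes of oxidative phosphorylation and 955 nt for mitochondrially encoded genes. After the median of genes of similar length was subtracted, the 3 list medians were 0.15, 0.10 and 0.090. The genes of similar length included the list members, so the subtraction can remove part of a list's own shift. The part of gene length in these list values was not tested beyond that subtraction.

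**Figure D4:**
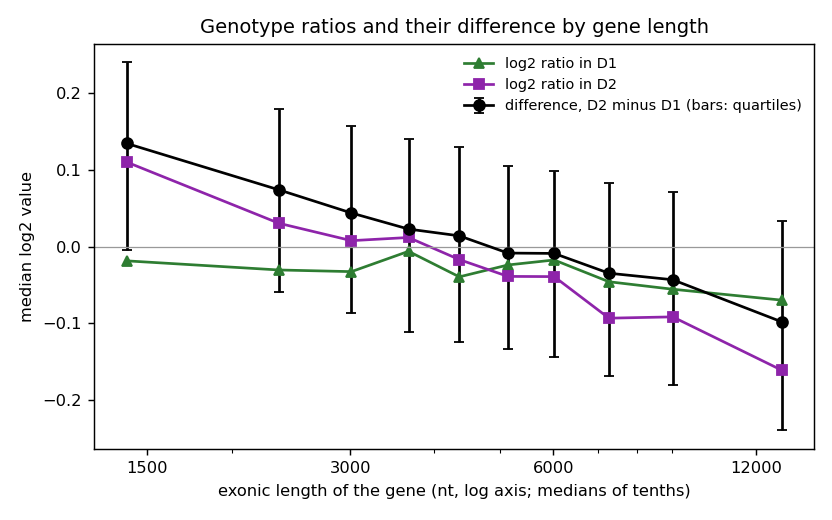
Median log2 ratio of Q175 over WT in D1 (triangles) and D2 (squares) and median difference (circles, bars give the quartiles) for 10 equal groups of genes by exonic length in nt (x axis, logarithmic). The difference goes from 0.13 in the shortest genes to -0.10 in the longest, and the D2 ratio covers a wider range than the D1 ratio.

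Cytoskeletal and metabolic lists were mostly positive, against 51.8% of all genes compared. Of 14 stathmin and tubulin genes, 12 were positive with a median of 0.22, and 0.12 after the length subtraction. Besides Stmn2, the tubulin gene Tubb2a was past 0.50, at 135, 180, 74.9 and 142 CPM (interval 0.42 to 0.59). Counts of Tubb2a were not whole, nor were those of the related Tubb2b, which differed by -0.28, so both values are uncertain. Tubb3, the neuronal tubulin, was at 309, 261, 248 and 251 CPM and differed by 0.26. Of 17 genes of glutathione and redox balance, 15 were positive (median 0.19, or 0.14 after the length subtraction). Of 21 genes of cholesterol synthesis and uptake 17 were positive (median 0.16 before and after that subtraction). Insig1, which restrains cholesterol synthesis, had the highest value of the cholesterol list, 0.41 (0.25 to 0.58), at 27.8, 25.2, 27.1 and 32.7 CPM. Among 31 proteasome subunit genes 24 were positive, with a median of 0.11, or 0.050 after the length subtraction, and none past 0.50 in either direction.

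Among 21 voltage-gated calcium channel genes, 9 were positive (42.9%, against 51.8% of all genes) and the median was -0.04. Cacna1g was the highest, and Cacna1e, which encodes the R-type channel Cav2.3, the lowest, at 201, 143, 283 and 139 CPM (-0.54, interval -0.60 to -0.47). Both channel genes had their larger ratio in D2, upward for Cacna1g and downward for Cacna1e.

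Among 11 genes of calcium release and pumps, the ryanodine receptor gene Ryr3 was at 626, 601, 867 and 552 CPM and differed by -0.59 (-0.63 to -0.56). Counts of Ryr3 were not whole and its exons overlap Aven, so its value is uncertain. Ryr1, of the same family, was lower in Q175 by almost the same ratio in both cell types, at 425, 159, 317 and 110 CPM (-0.11). Of 10 inward rectifier and background potassium channel genes 9 were positive (median 0.15), against 51.8% of all genes. Among them Kcnj3, a subunit of G protein-gated channels, was at 19.6, 20.9, 7.17 and 12.4 CPM (0.69, interval 0.45 to 0.94). Counts of Kcnj3 were not whole, so its value is uncertain. The Kv4 channel complex had a median of -0.01 over 8 genes, all between -0.17 and 0.18.

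Transmitter systems differed by member, and 51.8% of all genes compared were positive. Of 12 ionotropic glutamate receptor genes 9 were positive (median 0.13), led by the kainate receptor genes Grik4 (3.71, 5.84, 2.57 and 6.74 CPM, difference 0.73) and Grik3 (2.95, 2.23, 373 and 404 CPM, 0.52), the second of which rests on a low level in D1. Grik2, of the same family, was the lowest at 374, 244, 332 and 176 CPM (-0.30). Slc32a1, the vesicular GABA transporter, was the highest of 8 GABA synthesis and transport genes, at 232, 155, 208 and 178 CPM (0.35, interval 0.29 to 0.42). Among 20 postsynaptic scaffold genes, 10 were positive, from Dlgap2 at 62.2, 46.0, 68.0 and 36.1 CPM (-0.47) to Shank1 at 22.1, 24.7, 9.86 and 19.3 CPM (0.81, interval 0.59 to 1.02). Of 27 synaptic vesicle genes 20 were positive, with a median of 0.08 and synaptophysin (Syp) highest at 391, 507, 321 and 516 CPM (0.31). Counts of Slc32a1 and Syp were not whole, so both values are uncertain.

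Signalling genes lay on both sides of 0. The adenylyl cyclase genes Adcy7 (4.92, 5.05, 7.07 and 3.86 CPM, difference -0.90) and Adcy9 (21.7, 13.9, 17.5 and 7.28 CPM, -0.62) were the lowest of 28 genes for cyclases and G protein subunits. The inhibitory G protein gene Gnai2 was at 28.0, 37.4, 21.9 and 41.8 CPM (0.51) in the same list, whose median was 0.06. The orphan receptor gene Gpr26 was at 284, 201, 104 and 50.1 CPM (-0.55, interval -0.64 to -0.47), lower in Q175 in both cell types and by more in D2. Immediate early genes, which activity induces, had a median of 0.07, and -0.04 after the length subtraction. Of 19 compared, 10 were positive (52.6%, against 51.8% of all genes). Arc was at 410, 371, 657 and 446 CPM (-0.42), Npas4 at 88.9, 103, 147 and 130 CPM (-0.38), and Nr4a3 had the highest value at 0.51.

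Of 42 axon guidance genes 27 were below 0, with a median of -0.06, and 35.7% were positive against 51.8% of all genes. These are long genes, with a median of 7700 nt, and after the length subtraction their median was -0.034. Slit2, a repellent ligand, was at 2.30, 4.59, 7.57 and 8.56 CPM (-0.81, interval -1.23 to -0.38), and Ntng1, which encodes netrin G1, at 18.5, 22.3, 34.3 and 26.7 CPM (-0.62). The related gene Ntng2 was the highest member, at 5.88, 5.86, 5.84 and 9.32 CPM (0.67), with counts that were not whole. Chromatin genes of the Polycomb complexes had a median of -0.07 with 19 of 30 below 0, or -0.019 after the length subtraction, and Sfmbt2 alone passed 0.50. Of 50 developmental regulators matched, 9 reached 5 CPM and all 9 of those were positive, from Dlx5 at 0.07 to the homeobox gene Six3 at 73.0, 52.7, 76.2 and 78.1 CPM (0.51). The other 41 lay below the CPM minimum in every library, and Dlx5 was -0.01 at the lowest of the settings tried. Over all 50 matched regulators, 12 of them at 0 counts in every library, 25 had a difference above 0. Pax6, at 1.62, 2.06, 3.14 and 5.11 CPM, passed the minimum through D2 Q175 alone, which favours a positive difference. Counts of Six3 and Pax6 were not whole. Huntingtin partner genes were below 0 in 14 of 20 cases, with a median of -0.07, or -0.036 after the length subtraction, and none past 0.50.

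**Figure D5:**
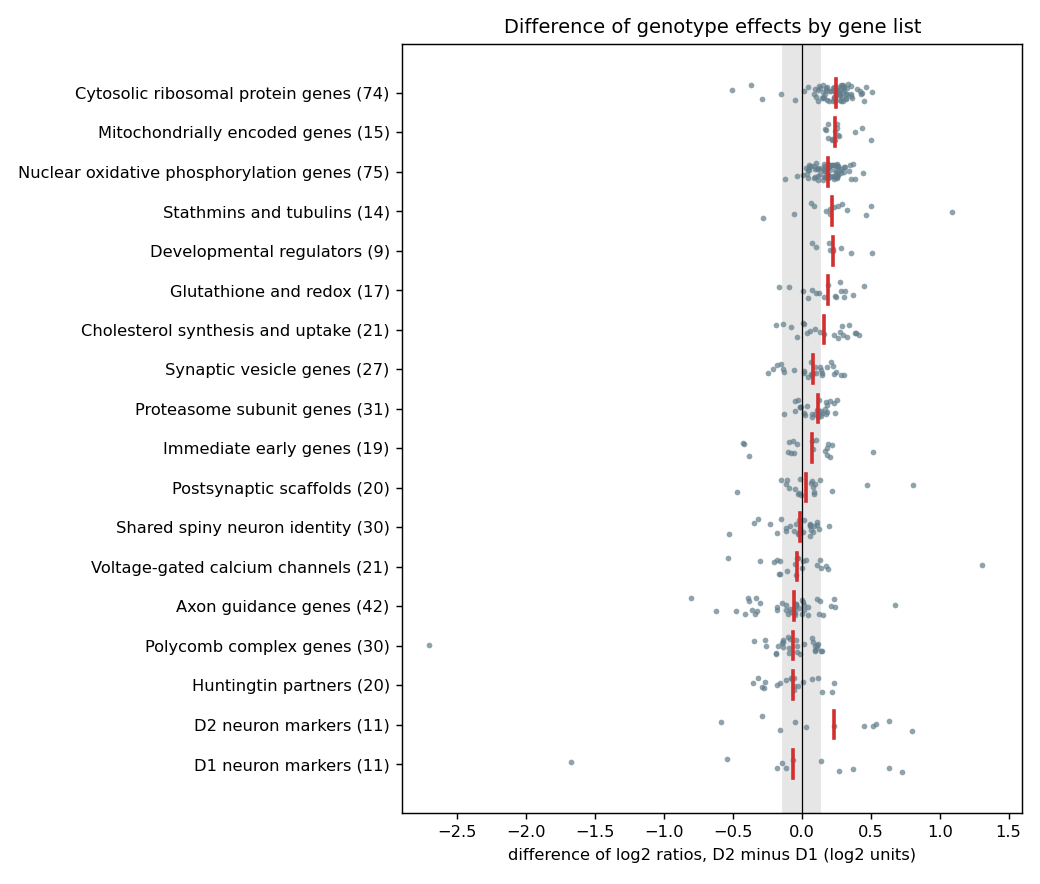
Each point is a member gene at its difference of log2 ratios, D2 minus D1, in log2 units (x axis), with the list and its number of compared members on the y axis. Red bars are medians, 0.25 for ribosomal protein genes and -0.07 for Polycomb genes, and the grey band spans the quartiles of all genes, -0.14 to 0.13.

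Markers of other cell types were present in all 4 libraries, and none of their lists had a member at 0 throughout. Summed cortical projection neuron markers were at 1477, 1067, 1695 and 1338 CPM, nearly all of it from Nrgn, which spiny neurons also express, at 1471, 1058, 1693 and 1335 CPM. Summed oligodendrocyte markers were at 375, 454, 414 and 548 CPM, and 4 of 19 stayed below 1 CPM. Summed astrocyte markers were at 473, 439, 521 and 495 CPM, of which Slc4a4 alone made up 278, 224, 285 and 199 CPM, and 7 of 9 compared astrocyte markers were higher in Q175 in D1 and 7 of 9 in D2. Summed microglia markers were at 35.5, 46.6, 44.9 and 55.9 CPM. The oligodendrocyte and microglia sums were higher in Q175 in both cell types. Endothelial and mural markers summed to 18.6, 16.9, 22.3 and 26.6 CPM, with 10 of 16 below 1 CPM. Interneuron markers summed to 16.3, 12.9, 9.16 and 13.6 CPM, with 10 of 15 below 1 CPM. The only interneuron markers that reached 5 CPM, Nos1 and Npy, were lower in Q175 in D1. In D2 their counts were equal in WT and Q175, at 201 for Nos1 and 8 for Npy. The higher D2 sum therefore came from members below that level. The myelin gene Mal (2.88, 3.35, 4.15 and 8.08 CPM, difference 0.74) and the astrocyte gene Fgfr3 (2.48, 3.64, 2.87 and 6.10 CPM, 0.53) were the members past 0.50 in the glial lists. Both passed the minimum of 5 CPM through D2 Q175 alone, which favours a positive difference. The part of other cell types in the differences above was not tested.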

How the data were processed

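RNA was sequenced with 50 nt paired reads in 4 libraries, 1 per group. The deposited table of expected counts (estimated counts) per Ensembl gene had unequal library totals and held values that were not whole. It was treated here as unnormalized. The deposited FPKM table holds values the authors scaled to gene length and library size, and it was used for alternatives only. Per the submitters' processing notes, CASAVA 1.8.2 was used. Aligner, counter and build: not given in the sources used here. Per the labels' protocols, RNA was extracted with the miRNeasy kit from flash-frozen tissue, while the design text describes sorted cells.

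Counts were rounded and scaled with TMM factors over all 4 libraries (edgeR 4.0.16, R 4.3.3). Log2 CPM used a prior count of 2. The 95% intervals come from the 4 counts of a gene and cover counting error only, since PCR copies of a molecule cannot be told from separate molecules. Genes at a difference of at least 1 log2 unit were counted as called, or at 0.5 with an interval excluding 0. No p-value was computed. The computation was tested on simulated counts. Counts that differed from a whole number by more than 0.01 in any library occurred in 32.9% of the genes compared. Not every named gene with such counts is marked in the text.

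Symbols came from GENCODE M21 for 32897 of 37620 identifiers, and lengths (union of exons) for 10904 of the 11152 genes compared. Sequences came from RefSeq (GRCm38.p6), in which 54 of 55 ribosomal protein genes found were considered for display. Of 1319 entries in 61 gene lists 1300 matched. Genes were named by rule: the 15 highest and 15 lowest differences whose interval excluded 0, leaving out genes without a symbol, unnamed gene models and pseudogenes, the 12 highest and 12 lowest at 20 CPM in all libraries, up to 10 in each direction with opposite changes, the cell type markers, and the 2 highest and 2 lowest of each list, 278 in all. Others named were chosen after their values were seen. The members, lists and rule were chosen with earlier results of these data known. Alternatives were DESeq2 1.42.0 size factors, library totals, TMM without mitochondrially encoded genes, other prior counts, CPM minimums and FPKM. Added after seeing the data were genes with whole counts only, genes whose interval excludes 0, and a subtraction of the median of genes of similar length in 20 bins.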

Additional observations from a re-analysis of the deposited data

Results flagged for a closer look

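The following genes moved in opposite directions in D1 and D2 by at least 0.32 log2 units, with both counting intervals excluding 0, and the difference was not tested. Igsf21 differed by 1.19, Rps27rt by 1.79 and Xlr3b by 1.45, all lower in Q175 in D1 and higher in D2. Chrd differed by -1.56, Igf2bp2 by -1.05, Tenm1 by -0.96, Frg2f1 by -0.75, Robo3 by -0.71 and Ide by -0.69, all higher in Q175 in D1 and lower in D2. Counts of Rps27rt, Xlr3b, Chrd and Tenm1 were not whole.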

How the results depend on the processing

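With 1 library per group, 0 residual degrees of freedom remain, so no setting gives a test and no replicate could be left out. No paired analysis was possible because each group had 1 library. The number of genes at least 2-fold positive, 22, became 1420 with no CPM minimum (23573 genes with at least 1 count), 7 with a minimum of 20 CPM in any library, 11 with at least 5 CPM in all 4 libraries, 11 with log2(FPKM + 1), 8 among genes with whole counts and 14 after the length subtraction. The number at least 2-fold negative, 17, became 1480, 6, 7, 8 and 6 under the first 5 of these. Of the genes called, 56.4% were positive, against 47.4% with log2(FPKM + 0.1), where 28 of the 39 genes stayed called. The median of D2 neuron markers became -0.18 with log2(FPKM + 1). That of mitochondrially encoded genes, 0.24, became 0.22 with library totals and with both FPKM scales and 0.090 after the length subtraction, and that of ribosomal protein genes, 0.25, became 0.15 there. With log2(FPKM + 1), Sfmbt2 (0.080) and Galnt9 (-0.094) reversed, and a pseudocount of that size pulls low genes toward 0: Ebf1 reached -0.23, Alk -0.50, Fbn1 -0.56, Chd7 -0.54 and Cacna1g 0.66. Stmn2 ranged from 0.92 to 1.10 and Cdr1 from -1.32 to -1.14 over all settings. Depth limits genes with few counts in 1 cell type, such as Ebf1 and Pdyn in D2.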

Other observations

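Beyond the lists above, 6 of 8 Wnt pathway genes were positive, against 51.8% of all genes. Their median difference was 0.30, or 0.24 after the length subtraction. Wnt4, a secreted ligand, was the highest at 6.96, 1.01, 7.14 and 1.64 CPM (0.65), and both Q175 libraries lay far below their WT libraries. Of 22 extracellular matrix genes 10 were positive, with a median of -0.07. Vcan, which encodes the proteoglycan versican, was at 70.3, 53, 79.0 and 39.8 CPM (-0.58, interval -0.70 to -0.46), and Fbn1 was the lowest member. The unfolded protein response genes Trib3 (5.39, 3.81, 4.98 and 1.94 CPM, -0.84) and Ern1 (7.06, 9.64, 7.47 and 6.78 CPM, -0.59) were the only 2 of 23 past 0.50. Over all genes, 3.83% were past 0.50 with an interval that excluded 0. Among 24 imprinted genes Nnat, which encodes neuronatin, was the lowest at 27.8, 17.5, 74.1 and 32.9 CPM (-0.51, interval -0.67 to -0.34).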
